A study of Mus musculus with 3 samples.

Results

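The genes described here are 50 genes of the cell division cycle, chosen by name, of 15503 genes in the deposited tables. They comprise 13 genes of DNA replication, 23 of mitosis and cytokinesis, 10 cyclins, kinases and transcription factors that drive the cycle, and 4 brakes. Of the 50, 49 were listed with a value in every library. Cdc25c, which encodes a phosphatase that activates Cdk1 at entry into mitosis, was not listed and is not analysed here. Messenger RNA was measured in left ventricular tissue of C57BL6J mice by RNA sequencing. By its title the study asks how the heart responds, in hypertrophy and fibrosis, when endothelial cells lack PHD2. PHD2 is the product of Egln1 and in normal oxygen marks hypoxia-inducible factors for destruction.

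RNA of 3 mice was pooled for each of 3 genotypes, so there is 1 library per genotype and no replicate against which a difference can be judged. Egln1_floxed mice carry the conditional Egln1 allele, and the series' design text calls this group wild type. Egln1_Tie2Cre mice delete Egln1 by Cre recombinase under the Tie2 promoter, and in Egln1_Hif2a_Tie2Cre mice the label adds Hif2a, the protein of Epas1, to the genes removed by the same Cre. Tie2Cre acts in endothelial cells and in blood-forming cells, and cardiomyocytes are not its target. Age and sex are not stated in the labels. Values are FPKM, the number of sequenced fragments scaled by transcript length and by library size, and the depth behind them is unknown. Values in a series follow the order floxed, Egln1_Tie2Cre, Egln1_Hif2a_Tie2Cre.

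A dividing cell copies its DNA in S phase and separates the copies in mitosis. E2F transcription factors switch on replication genes when D and E cyclins with their kinases release them from the retinoblastoma proteins, and B-MYB and FOXM1 with the MuvB complex switch on the mitotic genes later, through a promoter element named CHR. Most cardiomyocytes of the adult mouse have left the cycle, and these transcripts in a ventricle are generally taken to come mainly from other cells. In bulk tissue, fewer cells of a type and less RNA per cell cannot be told apart.

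Promoters of the mitotic and of the replication genes differed in how often they held certain sequence elements. The 5 shown were picked because they carry the elements of each class. The sequences are from RefSeq (GRCm38.p6) and give the 160 bases before the annotated start of the gene, 5′ to 3′ on the gene's strand. Capitals mark matches on either strand to the CHR (TTTGAA), the CCAAT box (CCAAT) and 3 E2F-type words (TTTCCCGC, TTTGGCGC and TTTCGCGC). Top2a (chr11:99024190-99024349, minus strand) encodes topoisomerase IIα, which untangles sister chromosomes. Mki67 (chr7:135716380-135716539, minus strand) encodes the Ki-67 proliferation antigen, and Kif11 (chr19:37376222-37376381, plus strand) a motor protein that pushes the spindle poles apart. Mcm5 (chr8:75109349-75109508, plus strand) and Mcm6 (chr1:128359706-128359865, minus strand) encode subunits of the replicative helicase.
Top2a: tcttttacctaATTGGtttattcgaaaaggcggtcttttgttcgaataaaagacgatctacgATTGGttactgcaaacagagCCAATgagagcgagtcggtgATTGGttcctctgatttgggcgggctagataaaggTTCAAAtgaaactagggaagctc
Mki67: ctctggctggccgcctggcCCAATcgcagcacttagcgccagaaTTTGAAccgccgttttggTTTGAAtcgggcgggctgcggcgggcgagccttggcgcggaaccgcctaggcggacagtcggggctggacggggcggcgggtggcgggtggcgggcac
Kif11: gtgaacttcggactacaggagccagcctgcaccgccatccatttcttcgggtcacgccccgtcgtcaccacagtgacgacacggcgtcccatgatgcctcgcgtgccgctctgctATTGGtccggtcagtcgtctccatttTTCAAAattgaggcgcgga
Mcm5: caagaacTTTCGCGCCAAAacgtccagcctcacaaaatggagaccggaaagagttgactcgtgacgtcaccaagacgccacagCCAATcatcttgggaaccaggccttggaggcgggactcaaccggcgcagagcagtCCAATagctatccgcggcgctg
Mcm6: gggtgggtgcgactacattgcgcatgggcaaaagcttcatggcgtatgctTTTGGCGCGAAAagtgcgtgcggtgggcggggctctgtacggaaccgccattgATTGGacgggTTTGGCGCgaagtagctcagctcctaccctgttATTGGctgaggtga
In these windows Top2a held 1 CHR and 4 CCAAT boxes, Mki67 held 2 CHR and 1 CCAAT box, and Kif11 held 1 of each. The Mcm5 window held no CHR, 2 CCAAT boxes and 2 E2F-type words that overlap on opposite strands. The Mcm6 window held no CHR, 2 CCAAT boxes and 3 E2F-type words, 2 of which overlap in the same way. Other windows of 160 bases lacked these elements. The mitotic genes Birc5, Bub1b, Cenpf, Hmmr, Kif23 and Racgap1 held no CHR there, while the replication gene Mcm2 held 1. The replication genes Mcm2, Mcm3, Mcm7, Rrm1 and Tyms held no E2F-type word there.

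Promoter windows of 300 bases (250 before and 50 after the start) were matched for 38 of the 50 genes, in 42 windows. A CHR was found in 76.2% of the 21 windows of mitotic genes and in 15.4% of the 13 windows of replication genes, against 17.9% of all 32817 promoter windows. CCAAT boxes were frequent in both classes, at 85.7% and 76.9% against 37.4% of all windows. E2F-type words were in 38.5% of replication windows, in 0 of the 21 mitotic windows and in 1.84% of all windows. The other mitosis and replication genes of the list described below had the same order for the CHR, at 65.9% of 44 windows and 13.9% of 36. Their E2F-type words were less separated, in 6 of the 44 mitotic and 9 of the 36 replication windows. A match is a word in a window and was not tied to binding of any factor. No entry was matched for Aurkb, Mcm4, Kif20a, Wee1, Cdc25c, Ccna2, Tpx2, Ccnd1, Ccnd2, Cdkn1c, Foxm1 and Ccne2.

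**Figure D1:**
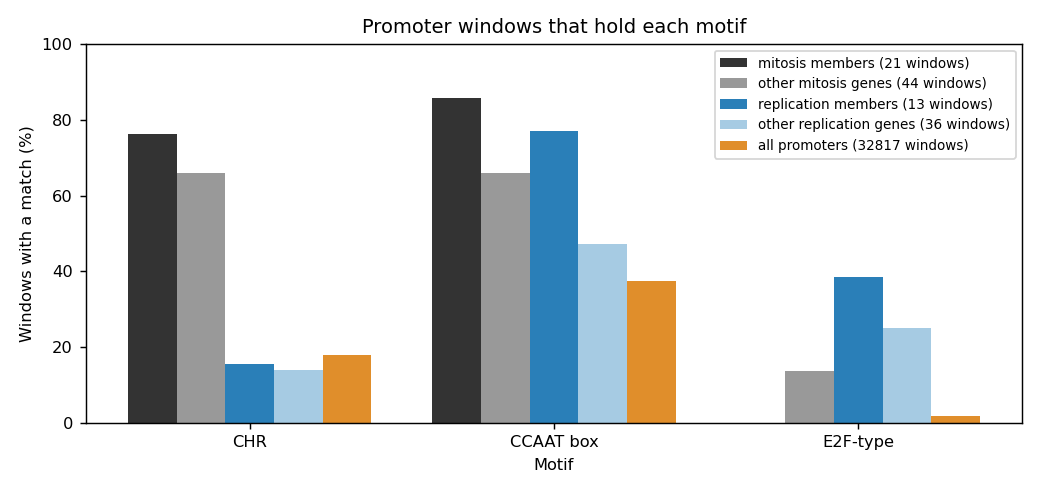
Share of 300-base promoter windows (y axis, percent) that hold each motif (x axis), by group of genes, with the number of windows in the legend. The CHR stands at 76.2% in windows of the mitotic genes and at 15.4% in those of the replication genes, and the E2F-type words at 0.0% and 38.5%.

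Transcripts of the 49 listed genes were scarce. FPKM was below 1 for 14 of them in floxed, for 27 in Egln1_Tie2Cre and for 21 in the library labelled Egln1_Hif2a_Tie2Cre. The mitotic genes accounted for most of these, with 8, 19 and 14 of 22 below 1 in that order of libraries. Replication genes were below 1 for 1, 2 and 2 of 13, cyclins and drivers for 5, 6 and 5 of 10, and brakes for 0 of 4 in each library. The 14 genes below 1 in the floxed library were below 1 in all 3 libraries, and 21 genes were at 1 or more throughout. Near the threshold in the floxed library, Tpx2 had an FPKM of 1.05 and Ccnb1 of 0.962.

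In every library the median level was highest for the brakes and next highest for the replication genes. The median FPKM was 11.5, 10.3 and 12.7 for the brakes, 3.62, 2.21 and 2.58 for replication, and 1.05, 0.691 and 0.959 for cyclins and drivers. It was 1.15, 0.432 and 0.674 for mitosis. The mitotic median in the Egln1_Tie2Cre library was thus the lowest of these 12 values, and the brakes had the highest median in every library.

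**Figure D2:**
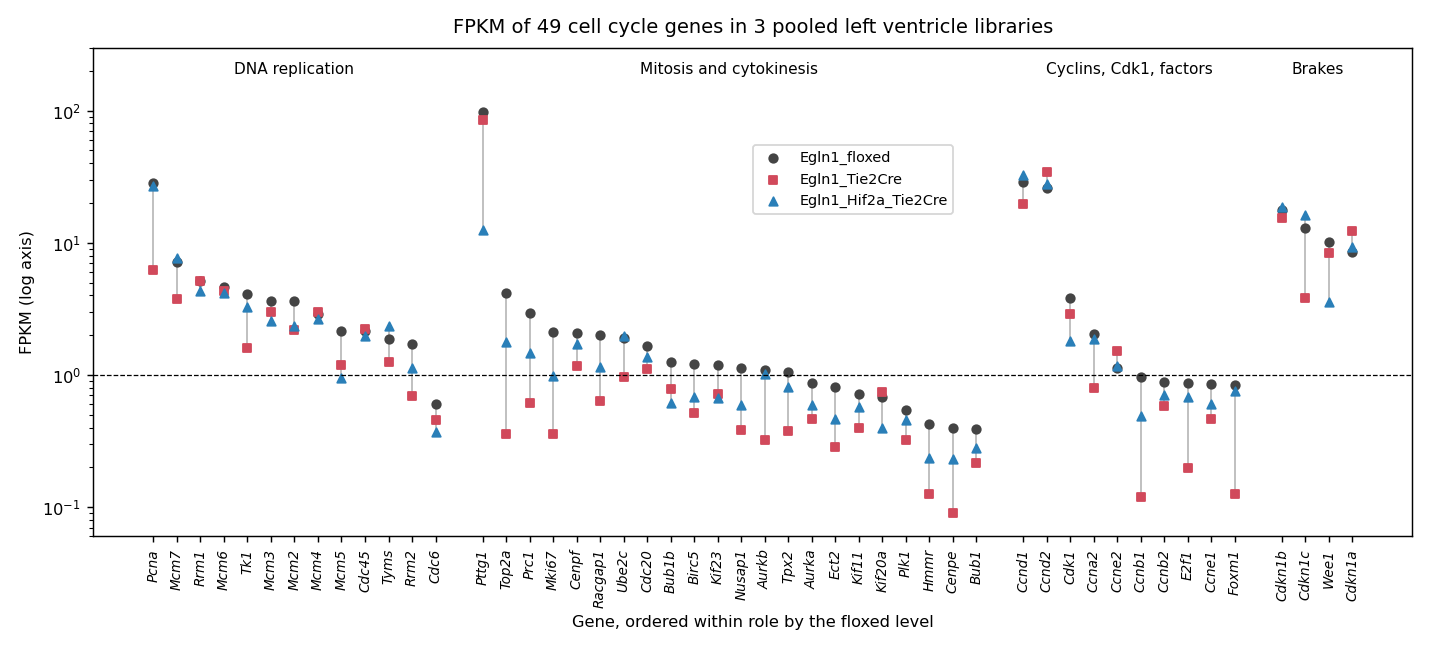
FPKM (y axis, log scale) of the 49 listed genes (x axis), grouped by role, in the floxed library (black circles), the Egln1_Tie2Cre library (red squares) and the one labelled Egln1_Hif2a_Tie2Cre (blue triangles). Each symbol is 1 pooled library and the dashed line marks an FPKM of 1, below which 14, 27 and 21 genes lie in that order of libraries.

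The Egln1_Tie2Cre library had the lowest value of the 3 libraries for 33 of the 49 genes, against 37.9% of all 14897 genes with a value in every library. The floxed library had the highest value for 37 of them, against 30.7% of all genes. Between these 2 libraries, 43 of the 49 genes were lower in Egln1_Tie2Cre by any amount, where 7412 of the 14827 genes in that table were. Kif20a, Mcm4, Cdc45, Ccne2, Ccnd2 and Cdkn1a were the 6 that were higher, by 1.02-fold to 1.44-fold.

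A difference was called where the ratio of FPKM + 1 reached 1.5-fold and the mean FPKM of the pair was at least 1, a rule that 30 of the 49 genes could meet. By this rule 10 genes were lower in Egln1_Tie2Cre than in the floxed library and 0 were higher, where 8.73% of all 11978 genes tested were lower and 9.46% higher. The 10 were Pcna, Mcm7, Tk1 and Rrm2 of replication, Top2a, Prc1, Mki67 and Racgap1 of mitosis, the cyclin Ccna2 and the brake Cdkn1c. Of these, Rrm2, Top2a, Prc1, Mki67, Racgap1 and Ccna2 were below 1 in Egln1_Tie2Cre and passed the filter only through their floxed value. The median log2 ratio of the 30 genes was -0.43, against 0.02 for all genes tested.

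The added value of 1 shrinks the ratio of genes at low FPKM, so plain ratios of FPKM over every listed gene were also computed, a choice made after the data were seen. By plain ratio 33 of the 49 genes were at least 1.5-fold lower and 0 were at least 1.5-fold higher, against 17.0% and 14.6% of all listed genes. The share was largest for mitosis, with 19 of 22 genes and a median 2.15-fold lower. It was 7 of 13 for replication (median 1.51-fold lower), 6 of 10 for cyclins and drivers (1.67-fold lower) and 1 of 4 for brakes (1.17-fold lower). Plain ratios spread widely at low values in these libraries, so the genes were also read by level. Among the 20 genes with a mean FPKM below 1, 18 were at least 1.5-fold lower, where 36.0% of all genes at that level were. Among the 20 with a mean of 1 to 5 it was 12, against 17.9%, and among the 9 at 5 or more it was 3, against 9.93%.

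Of the 3 genes at 5 or more, Pcna and Mcm7 have a near-identical pseudogene and Cdkn1c and Mcm7 overlap exons of a neighbour, which limits how reads could be assigned. In all, 11 of the 49 listed genes have such a copy elsewhere in the genome and 17 share exonic bases with another gene. Without the 11 genes that have a copy, 23 of 38 were at least 1.5-fold lower in Egln1_Tie2Cre by plain ratio, 14 of 16 for mitosis, where 13.4% of all coding genes without a copy were. On the scale of FPKM + 1, 5 of 22 were called, against 5.79% of such genes. Without genes of either kind the numbers were 17 of 26, 12 of 13 for mitosis, and 1 of 13 called, which was Racgap1. The share over all genes of neither kind was not computed. The 1 call of 13 is near the 5.79% of coding genes without a copy, and Racgap1 passed the filter only through its floxed value.

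In the library labelled Egln1_Hif2a_Tie2Cre, 40 of the 49 genes were lower than in the floxed library by any amount, where 7496 of the 14843 genes in that table were. On the scale of FPKM + 1, 7 genes were called lower and 0 higher of 30 kept, where 3.28% of all 11888 genes tested were lower and 4.42% higher. They were Mcm5, Top2a, Mki67, Prc1, Pttg1, Cdk1 and Wee1. Mcm5 and Mki67 were below 1 in Egln1_Hif2a_Tie2Cre and passed the filter only through their floxed value. The median log2 ratio was -0.15, against -0.0038 for all genes. By plain ratio 20 of 49 were at least 1.5-fold lower and 0 higher, against 9.75% and 10.6% of all listed genes, and 13 of these 20 were mitotic genes (13 of 22, median 1.73-fold lower). The others were 4 of 13 replication genes, 2 of 10 cyclins and drivers and 1 of 4 brakes, with medians 1.18-fold lower, 1.18-fold lower and 1.07-fold higher. By level, the shares were 10 of 20 genes below a mean of 1 (24.7% of all genes there), 8 of 20 at 1 to 5 (9.71%) and 2 of 9 at 5 or more (4.21%). Both comparisons use the same floxed library, so a high or low value there enters each of them.

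**Figure D3:**
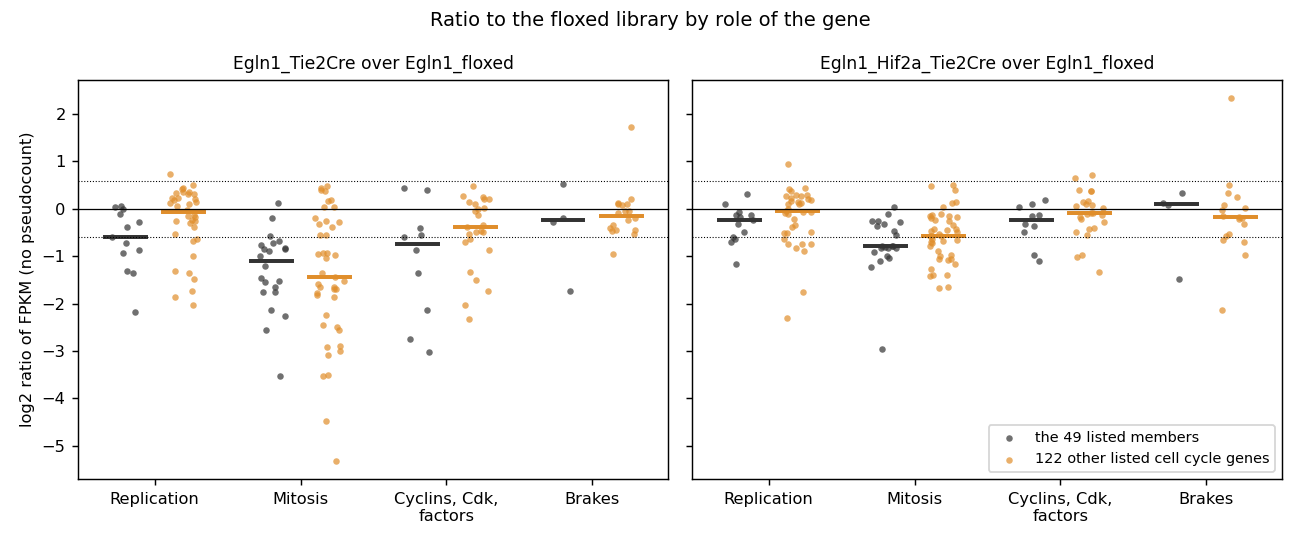
Plain log2 ratio of FPKM to the floxed library (y axis) for the 49 listed genes (black) and 122 other listed cell cycle genes (orange), by role (x axis), with each point a gene, thick lines at medians and dotted lines at 1.5-fold. In the Egln1_Tie2Cre panel the median of the 22 listed mitotic genes is -1.10 and that of the 4 brakes is -0.23, and in the Egln1_Hif2a_Tie2Cre panel these are -0.79 and 0.10.

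Set directly against each other, the library labelled Egln1_Hif2a_Tie2Cre was higher than Egln1_Tie2Cre for 33 of the 49 genes and lower for 16, where 7503 of 14894 genes in that table were lower. On the scale of FPKM + 1, 9 genes were called higher and 2 lower of 26 kept, where 9.67% of all 11999 genes tested were higher and 9.64% lower. The 9 were Pcna, Mcm7, Tk1, Top2a, Prc1, Ube2c, Ccna2, Ccnd1 and Cdkn1c, and the 2 were Pttg1 and Wee1. Top2a, Prc1, Ube2c and Ccna2 were below 1 in Egln1_Tie2Cre and passed the filter only through their value in the other library. Of the 9, each one has a pseudogene copy or shares exonic bases with another gene: without such genes 0 were called higher and 2 lower of 11 (6.2% and 8.11% of all coding genes without a copy), and the median log2 ratio went from 0.12 to -0.16. By plain ratio 22 of 49 were at least 1.5-fold higher and 4 lower, against 17.6% and 14.7% of all listed genes. Mitotic genes made up 11 of these 22, and 22 of the 49. By level, 9 of 20 genes with a mean FPKM below 1 were at least 1.5-fold higher, near the 36.0% of all genes there. At a mean of 1 to 5 it was 9 of 20 (18.1% of all genes there), and at 5 or more 4 of 9 (10.9%). Lower by 1.5-fold were 1, 1 and 2 genes at these levels. Among the 13 mitotic genes with neither a copy nor an overlap, 5 were at least 1.5-fold higher and 1, Pttg1, was lower. Most of the 13 had a mean FPKM below 1, and the 5 are near the 36.0% of all genes at that level. The share over all genes with neither was not computed.

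The authors' deposited table gave 0 of the 49 genes a q-value of 0.05 or less in any of the 3 comparisons, where 69, 2 and 85 genes in all had one. For Egln1_Tie2Cre against floxed the smallest q-value in the authors' deposited table was that of Top2a, at 0.6391. For the library labelled Egln1_Hif2a_Tie2Cre, Pttg1 had the smallest q-value in the authors' deposited table, at 0.2076 against floxed and 0.3571 against Egln1_Tie2Cre. These q-values compare single pooled libraries, not genotypes.

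The replication genes were uneven. Pcna (chr2:132249162-132253314, minus strand), the sliding clamp that holds DNA polymerase on its template, had FPKM values of 28.4, 6.28 and 27.0. It was 4.53-fold lower in Egln1_Tie2Cre alone, and the other 2 libraries were within 1.05-fold. A processed pseudogene, Pcna-ps2, matches it at 99.2% over 781 bases and was not listed in the tables. The helicase subunit Mcm7 had 7.19, 3.77 and 7.72, and Tk1, the thymidine kinase that salvages a DNA precursor, had 4.08, 1.60 and 3.25. Rrm2, the regulated subunit of ribonucleotide reductase, had 1.70, 0.687 and 1.12, while its partner Rrm1 had 5.11, 5.10 and 4.34. The pair of subunits of this enzyme, which makes deoxynucleotides, thus differed from floxed by 2.48-fold and 1.002-fold in Egln1_Tie2Cre. Tyms, which makes thymidylate, had 1.88, 1.24 and 2.33.

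The 6 subunits of the MCM2-7 helicase act as a ring in equal number, and their transcripts did not share a pattern. Mcm2 had 3.62, 2.19 and 2.34, Mcm3 had 3.64, 3.00 and 2.58, and Mcm4 had 2.91, 2.98 and 2.66. Mcm5 had 2.15, 1.18 and 0.954, and Mcm6 had 4.66, 4.29 and 4.14. In Egln1_Tie2Cre the subunits ranged from 1.90-fold lower (Mcm7) to 1.02-fold higher (Mcm4) than floxed, and in Egln1_Hif2a_Tie2Cre from 2.25-fold lower (Mcm5) to 1.07-fold higher (Mcm7). Mcm5 and Mcm6, whose promoters above both hold E2F-type words, thus differed: Mcm5 was called lower in Egln1_Hif2a_Tie2Cre and Mcm6 was within 1.12-fold of floxed in both. Cdc45, which joins the ring to form the active helicase, had 2.14, 2.21 and 1.96. Cdc6, which loads the ring onto DNA, had 0.600, 0.458 and 0.370 and was the only replication gene below 1 throughout.

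Among mitotic genes, Top2a (chr11:98992943-99024189, minus strand) had the widest gap between libraries. Its FPKM was 4.15, 0.357 and 1.78, which is 11.6-fold and 2.33-fold lower than floxed. Mki67 had 2.12, 0.358 and 0.986, which is 5.93-fold and 2.15-fold lower. Prc1, which bundles the microtubules of the central spindle, had 2.95, 0.612 and 1.47, although 911 of its exonic bases overlap Rccd1. These 3 genes were the ones called lower in both comparisons with the floxed library, and the value of each in Egln1_Hif2a_Tie2Cre lay between the other 2 libraries. Kif11, the third gene whose promoter is shown, had 0.712, 0.398 and 0.567, with the same order of libraries at a lower level.

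Genes of cytokinesis and the chromosomal passenger complex had this order as well, with exceptions. Racgap1, which positions the cleavage furrow, had 1.99, 0.638 and 1.15, and its partner in the centralspindlin complex, the motor Kif23, had 1.18, 0.713 and 0.672. The passenger kinase Aurkb had 1.09, 0.322 and 1.02, and its subunit Birc5 (survivin) had 1.20, 0.519 and 0.676. Aurkb was therefore 3.40-fold lower in Egln1_Tie2Cre and within 1.08-fold of floxed in Egln1_Hif2a_Tie2Cre. Kif23 was lowest in Egln1_Hif2a_Tie2Cre, 1.06-fold below its value in Egln1_Tie2Cre.

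Spindle and kinetochore genes were mostly near or below 1. Nusap1, which binds spindle microtubules, had 1.13, 0.385 and 0.597, and Tpx2, which activates Aurora A, had 1.05, 0.378 and 0.809. The kinetochore protein gene Cenpf had 2.07, 1.16 and 1.72. Bub1b, a spindle checkpoint kinase gene, had 1.25, 0.788 and 0.615. Cdc20 and Ube2c, which help the anaphase-promoting complex mark mitotic proteins for destruction, had 1.64, 1.10 and 1.36 and 1.91, 0.961 and 1.97. Ube2c shares 592 exonic bases with Tnnc2, a skeletal muscle troponin gene. The 8 mitotic genes below 1 in all libraries were Aurka, Ect2, Kif11, Kif20a, Plk1, Hmmr, Cenpe and Bub1. Of these, Cenpe had the lowest single value, at 0.397, 0.0905 and 0.229, and Kif20a was the only mitotic gene not lower in Egln1_Tie2Cre, at 0.682, 0.737 and 0.395, with 1271 exonic bases shared with Cdc23.

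Pttg1 (chr11:43420250-43426251, minus strand) had by far the highest level of the 22 mitotic genes. It encodes securin, which holds back the protease that cuts the cohesin rings between sister chromatids. Its FPKM was 97.4 with floxed alleles, 85.2 in Egln1_Tie2Cre and 12.6 in Egln1_Hif2a_Tie2Cre. The next of the 22 genes in each library was at 4.15 (Top2a), 1.16 (Cenpf) and 1.97 (Ube2c), so securin transcript was above them in all 3. It was 7.76-fold lower than floxed and 6.79-fold lower than Egln1_Tie2Cre in the library labelled Egln1_Hif2a_Tie2Cre, the largest differences of any of the 49 genes in those comparisons. No near-identical copy and no exon overlap was found for it.

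The D cyclins, which start the cycle in response to growth signals, were the most abundant drivers and did not follow the mitotic genes. Ccnd1, which shares 1100 exonic bases with a neighbour, had 28.8, 19.5 and 32.8 and Ccnd2 had 25.9, 34.1 and 27.7, so Ccnd1 was lowest and Ccnd2 highest in Egln1_Tie2Cre. The differences from floxed were at most 1.48-fold and neither was called. Ccne2, a cyclin of S phase entry, had 1.13, 1.53 and 1.16. Ccna2, the cyclin of S and G2 phase, had 2.06, 0.798 and 1.87 and was 2.57-fold lower in Egln1_Tie2Cre only, with 510 exonic bases shared with Exosc9.

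Cdk1, the mitotic kinase itself, had 3.83, 2.89 and 1.79 and was lowest in Egln1_Hif2a_Tie2Cre, where it was 2.14-fold below floxed. Its partner Ccnb1 had 0.962, 0.119 and 0.491, which is 8.11-fold and 1.96-fold lower than floxed, with 4 processed pseudogenes in the genome. The second B cyclin, Ccnb2, had 0.880, 0.583 and 0.705. The transcription factor genes Foxm1 and E2f1 were below 1 throughout, at 0.843, 0.126 and 0.754 for Foxm1 and at 0.873, 0.198 and 0.675 for E2f1. They were 6.70-fold and 4.41-fold lower than floxed in Egln1_Tie2Cre and 1.12-fold and 1.29-fold lower in Egln1_Hif2a_Tie2Cre. Ccne1 had 0.847, 0.460 and 0.603.

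The 4 brakes had no common direction. Cdkn1c (chr7:143458339-143461050, minus strand), the imprinted inhibitor p57, had 12.9, 3.85 and 16.2, which is 3.35-fold lower in Egln1_Tie2Cre and 1.26-fold higher in Egln1_Hif2a_Tie2Cre than in floxed. It shares 625 exonic bases with an antisense transcript, and whether the counting used strand is not stated in the sources at hand. Cdkn1a, the inhibitor p21 induced by p53, had 8.53, 12.3 and 9.28 and was 1.44-fold higher in Egln1_Tie2Cre, the largest excess over floxed of the 49 genes there. Cdkn1b, the inhibitor p27, had 17.6, 15.4 and 18.5 and stayed within 1.20-fold across the libraries. Wee1 (chr7:110122046-110143286, plus strand), the kinase that holds Cdk1 inactive, had 10.1, 8.32 and 3.58 and was 2.81-fold lower than floxed in Egln1_Hif2a_Tie2Cre. Wee1 and its target Cdk1 were thus both lowest in that library. Wee1, Cdk1, Pttg1 and the helicase gene Mcm5 were called lower than floxed there and not in Egln1_Tie2Cre. For Mcm5 and Cdk1 this was a matter of the threshold, as they were 1.82-fold and 1.33-fold lower than floxed in Egln1_Tie2Cre. Of Wee1, Cdk1, Pttg1 and Mcm5, only Pttg1 and Wee1 were called when Egln1_Hif2a_Tie2Cre was set against Egln1_Tie2Cre. No difference between genotypes could be tested with these pools.

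**Figure D4:**
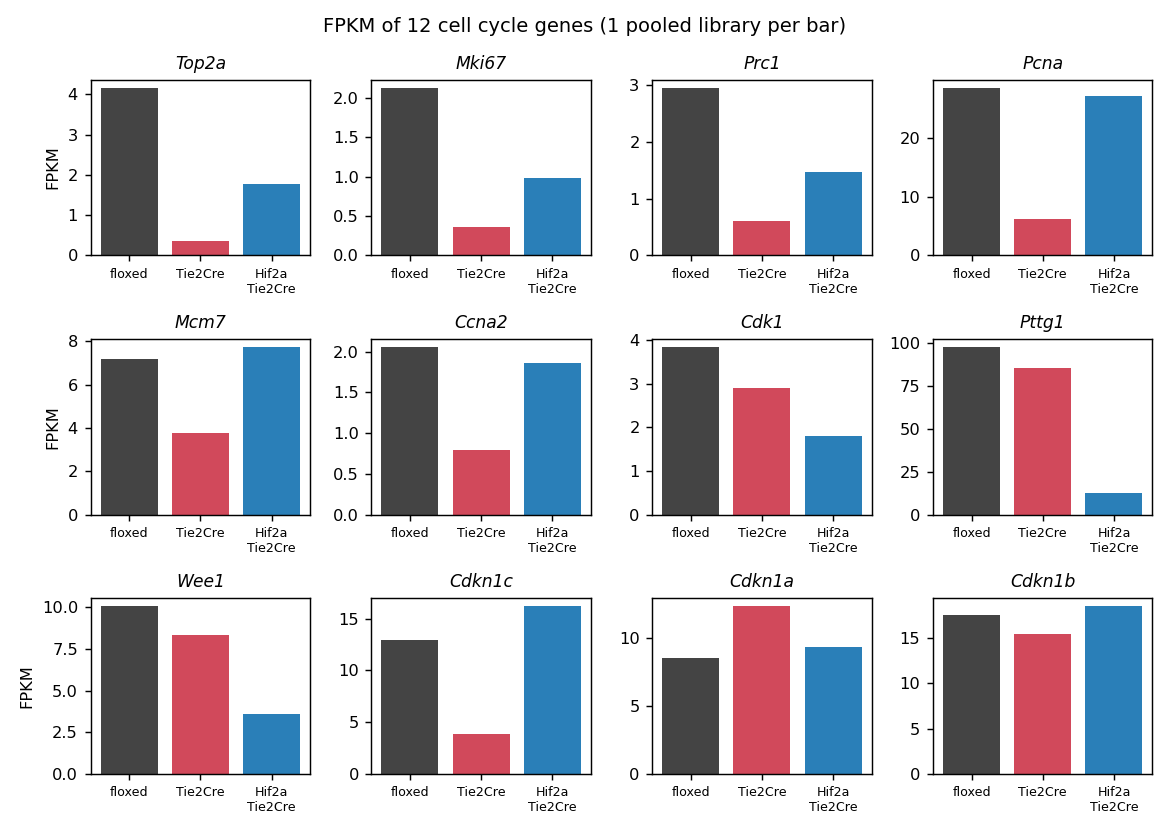
FPKM (y axes, each from 0 with its own scale) of 12 of the genes in the floxed, Egln1_Tie2Cre and Egln1_Hif2a_Tie2Cre libraries, with each bar 1 pooled library and no error bar. Top2a, Mki67, Prc1, Pcna, Mcm7, Ccna2 and Cdkn1c are lowest in Egln1_Tie2Cre, while Cdk1, Pttg1 and Wee1 are lowest in Egln1_Hif2a_Tie2Cre.

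A second list of 125 cell cycle genes not among the 50 was read in the same way, and 122 were listed (Cenpi, Kif14 and Troap were not). Of its 43 mitotic genes, 28 were at least 1.5-fold lower than floxed in Egln1_Tie2Cre by plain ratio, with a median 2.71-fold lower, and 19 in Egln1_Hif2a_Tie2Cre, with a median 1.48-fold lower. Its 36 replication genes had 9 and 8 at least 1.5-fold lower, its 25 cyclins, kinases and factors 8 and 3, and its 18 brakes 1 and 4. Of all listed genes, 17.0% were at least 1.5-fold lower in Egln1_Tie2Cre and 9.75% in Egln1_Hif2a_Tie2Cre. The mitotic genes of this list had a median FPKM of 0.687, 0.253 and 0.462, and 33 had a mean below 1, of which 27 and 18 were at least 1.5-fold lower. Of all genes at that level, 36.0% and 24.7% were.

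On the scale of FPKM + 1, 5 of the 74 genes kept in this list were called lower in Egln1_Tie2Cre and 0 higher, where 8.73% and 9.46% of all genes tested were. The median log2 ratio of the 74, of which 10 were mitotic genes, was -0.0092, against -0.43 for the 30 genes kept above. The lower values of the first set were thus not repeated in this list on this scale. The filter left out most mitotic genes of this list, so the medians cover unlike sets. By plain ratio, 1 of its 5 mitotic genes with a mean of 1 to 5 was at least 1.5-fold lower, and 0 of 5 at 5 or more. The 5 were Tfdp1, the dimer partner of E2F, at 13.3, 4.66 and 12.2, Spc24 of the kinetochore at 4.04, 1.28 and 3.41, the DNA methylation factor gene Uhrf1 at 1.71, 0.667 and 1.10, the chromatin assembly gene Chaf1b at 1.83, 0.551 and 0.541, and the stress-induced gene Gadd45b at 7.90, 4.06 and 4.01. Uhrf1 in Egln1_Tie2Cre and Chaf1b in both Cre libraries were below 1 and passed the filter only through their floxed value. In Egln1_Hif2a_Tie2Cre against floxed 3 of 74 were called lower and 0 higher, where 3.28% and 4.42% of all genes were, and the 3 were Chaf1b, Gadd45b and Incenp, a passenger complex subunit gene (2.60, 1.78 and 1.23). Between the other 2 libraries, Spc24, Tfdp1 and Mycn (1.52, 1.04 and 2.36) were called higher and Ckap5 and Rbl2 lower in Egln1_Hif2a_Tie2Cre, which is 3 and 2 of 68 kept, where 9.67% and 9.64% of all genes were.

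The most abundant genes of this list showed small differences. For mitosis they were the centromeric histone gene Cenpa (23.9, 24.5 and 24.7), the checkpoint gene Bub3 (15.6, 16.1 and 14.1), the microtubule polymerase gene Ckap5 (10.7, 11.9 and 7.61) and the condensin gene Smc4 (8.49, 11.1 and 9.44). For replication they were Gmnn, an inhibitor of origin licensing (44.7, 52.4 and 52.3), the single-strand binding genes Rpa1 (27.2, 29.5 and 20.9) and Rpa3 (15.7, 17.4 and 21.1), and Dut, which clears dUTP (18.3, 15.3 and 22.03). None of these 8 genes was called against floxed in either library. The kinase gene Cdk4 had 37.6, 34.5 and 48.95, E2f6 had 33.1, 35.5 and 31.2, Ccnd3 had 31.4, 34.9 and 27.8 and Ccnh had 16.8, 19.2 and 17.6. Among brakes, Ccng1 had 277.1, 204.1 and 242.9, Tob1 had 19.9, 21.0 and 20.04, Gadd45a had 17.4, 12.01 and 13.9 and Btg2 had 12.4, 13.2 and 17.6. Rbl2, a relative of the retinoblastoma gene, had 13.5, 15.6 and 9.33.

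The targeted genes and the cell type markers give the setting of these values. Egln1 had FPKM values of 129.5, 95.7 and 129.0, so its level does not mark the library labelled Egln1_Hif2a_Tie2Cre as deleted for Egln1. Directions drawn from that library rest on its label. Cells that Tie2Cre does not target, such as cardiomyocytes, may add to the Egln1 level of the whole tissue. That level therefore cannot settle whether Egln1 was deleted in either Cre library. Epas1 had 77.4, 65.0 and 54.5, and Tek, the gene of Tie2, had 16.5, 23.6 and 17.5. Cardiomyocyte markers (6 of 7 with a value in every library) summed to 30743, 39420 and 35671 and were the most abundant of the lists, with Myl2 at 10992, 19883 and 15211 and Myh6 at 6691, 3645 and 4600.1 in opposite directions. Sums over the markers with a value were 224.6, 313.9 and 263.7 for endothelium (7 of 7), 360.2, 372.9 and 447.3 for fibroblasts (7 of 7) and 347.1, 313.7 and 368.4 for smooth muscle and pericytes (7 of 7). Most of the endothelial excess in Egln1_Tie2Cre over floxed lay in Vwf, at 20.4, 89.2 and 17.8. Of the 7 endothelial markers 2 were lower there than in floxed, Cdh5 (64.3, 56.9 and 58.1) and Cldn5 (14.4, 11.8 and 24.3). Pecam1 (54.7, 67.7 and 63.9), Kdr (32.9, 42.9 and 37.2), Emcn (21.4, 21.9 and 44.8) and Tek were higher.

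Blood and surface cell markers differed more. Macrophage markers (6 of 7, Adgre1 not listed) summed to 186.9, 133.1 and 280.9, lowest in Egln1_Tie2Cre, with 5 of 6 below floxed. Neutrophil markers (3 of 7, with Ly6g, Retnlg, Mpo and Elane not listed) summed to 2.15, 55.9 and 10.03. That sum in Egln1_Tie2Cre lay mostly in S100a8 (0.489, 22.7 and 3.32) and S100a9 (1.47, 31.9 and 6.30), while Csf3r had 0.188, 1.27 and 0.413. Mesothelial markers (4 of 7, with Msln, Lrrn4 and Upk1b not listed) summed to 2.70, 24.4 and 2.42. The mesothelial sum in Egln1_Tie2Cre lay mostly in Wt1 (2.25, 10.2 and 1.60) and Krt19 (0.218, 13.7 and 0.169). Krt8 was higher there than in floxed at a low level (0.109, 0.430 and 0.109), and Upk3b was lower (0.122, 0.0429 and 0.538). Lymphocyte markers (5 of 7, with Cd3e and Ms4a1 not listed) summed to 1.20, 2.12 and 1.85. The part of any of these cell types in the cell cycle differences was not tested.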

How the data were processed

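The authors deposited 3 tables, each comparing 2 of the 3 pooled libraries. TopHat2 and Cuffdiff made them, per the submitters' processing notes, and neither their versions nor the genome build and annotation are given in the sources used here. Each deposited table holds FPKM for both libraries, a fold (the larger FPKM over the smaller) and the authors' q-value from 1 pool against another, per the file headers. Columns were assigned by the sample titles in each table's name and checked on values that recur between tables (14368 of 14369 genes identical for floxed, 14489 of 14489 and 14367 of 14367 for the others). The deposited tables list no FPKM of 0 and keep no counts, so no interval is given.

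From the FPKM, a ratio was computed as log2((FPKM + 1)/(FPKM + 1)) over all genes with a pair mean of at least 1. A gene was called at 1.5-fold. The call was tested on simulated data for recovering ratios it was given, which does not measure the spread between replicates. Those ratios were set only in genes with an FPKM of at least 5 and were large enough to pass the threshold by construction. Most of the 49 genes lie at lower levels, which the simulation does not cover. The deposited FPKM were also divided without a pseudocount or filter, an alternative chosen after the data were seen. Other alternatives were a pseudocount of 0.1, no filter, a mean of at least 5, 2-fold, median centring, genes without copies and the authors' q-value at 0.05. Copies were found by aligning the longest GENCODE transcript of each gene (GRCm38) to the others with minimap2 2.31 (at least 90% identity over 200 bases and 50% of the shorter transcript). Python 3.11.15, pandas 2.3.3 and numpy 2.4.6 were used.

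Genes listed at an FPKM of 1 or more in any library are given with every value. Of the others, the highest, the lowest and those called are named. For the second list, the 4 most abundant genes per role and those called are named. The 50 genes, the lists and the tests were chosen with earlier results of these data known. A further marker list is not reported here.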

Additional observations from a re-analysis of the deposited data

How the results depend on the processing

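The number of genes lower in Egln1_Tie2Cre than in floxed was 10 as reported. It was 3 with a mean FPKM of at least 5, 5 at 2-fold, 5 without genes that have a copy, 1 without genes that have a copy or an exon overlap, 33 by plain ratio and 0 by the authors' deposited q-value. The median log2 ratio of -0.43 was -0.22 at a mean of at least 5, -0.58 with a pseudocount of 0.1, -0.28 without copies, -0.25 without copies or overlaps and -0.86 by plain ratio. For Egln1_Hif2a_Tie2Cre against floxed, 7 genes lower became 2 at a mean of at least 5, 2 at 2-fold, 4 without copies or overlaps, 20 by plain ratio and 0 by q-value. Its median of -0.15 was 0.0914 at a mean of at least 5, which has the opposite sign, and -0.37 by plain ratio and -0.37 without copies or overlaps. For Egln1_Hif2a_Tie2Cre against Egln1_Tie2Cre, 9 genes higher became 4 at a mean of at least 5, 3 at 2-fold, 5 without copies, 0 without copies or overlaps, 22 by plain ratio and 0 by q-value, and 2 genes lower became 4 by plain ratio and 0 by q-value. Its median of 0.12 was 0.25 at a mean of at least 5, 0.50 by plain ratio, -0.12 without copies and -0.16 without copies or overlaps, the last pair of opposite sign. Fewer genes enter under the stricter mean and without copies, and the cause of the other shifts was not tested. The plain ratio and the removal of overlapping genes were chosen after the data were seen. The number of genes below an FPKM of 1, given as 14, 27 and 21, was 3, 17 and 8 below 0.5 and 26, 33 and 33 below 2. With 1 pool per genotype, no library could be left out. Depth is unknown, so which of the values below 1 rest on few fragments cannot be read from the tables.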
